A study of Mus musculus with 8 samples.

Results

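The genes of cholesterol and fatty acid synthesis were followed through mouse colon epithelium from tissue, organoids and assembloids, and through the stroma of the assembloids. The set held 29 genes of the 32285 in the count matrices. They were chosen by name for their known function, with earlier results of these data known. The 29 genes comprised 7 enzymes of the mevalonate steps, 11 enzymes from squalene to cholesterol, 5 regulators or carriers of sterols and 6 genes of fatty acid synthesis and desaturation. Every one passed the filter on low counts in each comparison given here.

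Cells were sorted by flow cytometry and profiled as single cells by counting unique molecular identifiers (UMIs) at the 3′ end of transcripts, in 8 libraries that formed 4 groups of 2. All cells came from C57BL/6 mice with no engineered allele named for them. Tissue crypts were released from the colon with EDTA, dissociated with TrypLE and not cultured. Organoids, which are epithelium grown alone in Matrigel, were kept in a full medium with EGF, the TGF-β receptor inhibitor A83-01, B-27 and N2 supplements, surrogate Wnt, the GSK3 inhibitor CHIR-99021, R-spondin 1 and noggin. Assembloids were organoids placed together with colon stromal cells in Matrigel and grown without surrogate Wnt, CHIR-99021, R-spondin 1 and noggin, and their epithelial and stromal cells were sequenced as separate groups. The stromal cells had first been grown in flasks in a medium with fetal bovine serum. The assembloid stroma thus came from cultured cells and need not stand for the colon stroma as a whole. Assembloid epithelium therefore differed from organoid epithelium in its partners and in its medium. Assembloids were also grown on an orbital shaker. Their cells were released with Liberase TL and DNase I and then TrypLE, those of organoids with TrypLE alone. The part of each of these differences was not tested. The study calls the 2 libraries of a group biological replicates. The labels did not give the animals behind each epithelial library. Tests between groups rest on the spread between 2 libraries a group. Tests between cell classes hold the library as a term and rest on how far class differences varied between libraries. In each fit that spread was shared over all its groups or classes and drew on other genes. A p-value thus did not rest on the compared libraries alone.

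Cells build cholesterol from acetyl-CoA by way of mevalonate and squalene, and they build fatty acids from the same acetyl-CoA, which ATP citrate lyase makes in the cytosol. Most of these enzymes are targets of the SREBP transcription factors: SREBP2, from Srebf2, acts mainly on the sterol genes, and SREBP1, from Srebf1, mainly on the fatty acid genes. SCAP carries the SREBPs out of the endoplasmic reticulum when sterols are low, and INSIG proteins hold SCAP back when sterols are high. Insig1 is itself an SREBP target. Colon epithelium renews quickly, from stem cells at the crypt base that give rise to absorptive colonocytes and mucus-secreting goblet cells.

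Promoter sequence in the RefSeq table for build GRCm38.p6 was found for 23 of the 29 genes. It was not found there for Fdps, Fdft1, Sqle, Stard4, Scd1 and Scd2. The windows of 300 bases, from 250 before to 50 after each start site, were searched on both strands for a sterol response element (TCACNCCAC), an E-box (CACGTG), the GC box GGGCGG, and the CCAAT box. A gene was counted where any of its windows held the letters. CCAAT boxes were present for 19 of the 23 genes, or 82.6%, against 41.1% of 27025 genes in the table. GC boxes were likewise present for 19 of 23, against 38.2% of all genes. E-boxes were found for 5 of 23 (Hsd17b7, Sc5d, Dhcr7, Insig1 and Scap), against 8.09% of all genes. The exact sterol response element occurred for 1 gene, Hmgcs1, against 1.44% of all genes. A match is a run of letters and was not tested as a binding site.

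Written 5′ to 3′ on the coding strand, the 150 bases ending 51 bases before the start site are shown for 5 genes whose levels are described in detail: Hmgcs1 (chr13:119690151-119690300, plus strand), Idi1 (chr13:8885406-8885555, plus), Insig1 (chr5:28071212-28071361, plus), Acly (chr11:100528051-100528200, minus) and Fasn (chr11:120824598-120824747, minus). Capitals mark the letters of any of the motifs searched, with ATTGG and CCGCCC as the other strand's reading of a CCAAT box and a GC box.
Hmgcs1: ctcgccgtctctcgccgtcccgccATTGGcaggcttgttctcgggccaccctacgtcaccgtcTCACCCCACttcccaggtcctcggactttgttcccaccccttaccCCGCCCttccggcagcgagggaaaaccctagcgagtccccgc
Idi1: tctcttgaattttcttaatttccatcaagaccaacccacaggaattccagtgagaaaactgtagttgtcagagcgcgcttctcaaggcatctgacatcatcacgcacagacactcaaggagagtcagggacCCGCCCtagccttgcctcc
Insig1: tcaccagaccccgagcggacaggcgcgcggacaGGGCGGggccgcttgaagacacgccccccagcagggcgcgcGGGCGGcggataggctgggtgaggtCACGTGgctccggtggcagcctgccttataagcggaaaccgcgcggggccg
Acly: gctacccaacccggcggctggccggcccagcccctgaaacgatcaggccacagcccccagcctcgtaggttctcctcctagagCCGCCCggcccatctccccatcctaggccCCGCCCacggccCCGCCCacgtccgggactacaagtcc
Fasn: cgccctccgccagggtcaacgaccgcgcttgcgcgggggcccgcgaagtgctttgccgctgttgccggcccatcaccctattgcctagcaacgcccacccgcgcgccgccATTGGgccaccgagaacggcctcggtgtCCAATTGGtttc
The Hmgcs1 stretch held 1 sterol response element with 1 CCAAT box and 1 GC box, while the Acly stretch held 3 GC boxes and the Fasn stretch 3 CCAAT boxes, 2 of which shared bases.

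After the filter the epithelial sums held 36945090 to 187583982 UMIs a library from 4305 to 27002 cells, and the stromal sums 139755286 and 161750159 UMIs from 9048 and 9020 cells. Depth differed between replicates 1 and 2, with medians of 35219 and 6738 UMIs a cell in organoids and 3492 and 13724 in assembloid epithelium. In tissue they were 3350 and 3701. Each of the 29 genes had at least 471 UMIs in every library. Between 25.4% and 96.1% of barcodes passed the filter, lowest in the tissue libraries. All 6 epithelial markers were found in all epithelial libraries, and their summed level ran from 5474 to 11462 counts per 1000000 UMIs (CPM). Fibroblast markers stood at 45.1 to 191 CPM in assembloid epithelium after gated cells had been left out, against at most 0.0541 in organoid and tissue epithelium, where Col1a2 and Lum were at 0 in every library. Any pair of libraries shared at most 0.98% of the barcodes of the smaller one. Levels of the 29 genes are CPM of the summed UMIs scaled by edgeR's TMM factors, and marker sums are CPM without those factors. The factors were set for each fit apart, so scaled levels from different fits are not on the same scale. Log2 fold changes carry their standard error (SE), and adjusted p-values are from edgeR's quasi-likelihood test over all genes tested.

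The first comparison asked how the genes stood in cultured organoid epithelium relative to the epithelium of the tissue. Organoids carried higher levels along the mevalonate steps and higher Scd1, while the regulators showed no call and Acly and Hmgcs1 were lower. Of the 29 genes 13 were called higher, or 44.8%, where 24.4% of all genes tested were, and 2 were called lower, or 6.90%, where 22.9% of all genes were. Their median log2 fold change was 0.35, against 0.06 over all genes.

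Among the mevalonate enzymes 6 of 7 were called higher in organoids. Acat2, the cytosolic thiolase that joins 2 acetyl-CoA, stood at 31.6 and 23.7 CPM in tissue and 137 and 109 CPM in organoids (log2 fold change 2.16 ± 0.24 SE, adjusted p = 0.000187, 4.45-fold). Pmvk, phosphomevalonate kinase, stood at 39.2 and 42.5 CPM in tissue and 192 and 98.8 CPM in organoids (1.83 ± 0.31 SE). Idi1, the isomerase of isopentenyl diphosphate, stood at 95.6 and 74.9 CPM in tissue and 292 and 156 CPM in organoids (1.39 ± 0.32 SE, adjusted p = 0.00778). For these enzymes both organoid libraries lay above both tissue libraries, although for Pmvk and Idi1 organoid replicate 1 lay well above replicate 2. Fdps, Mvd and Mvk were also called, with log2 fold changes of 1.42, 1.00 and 0.91.

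Hmgcs1, which makes HMG-CoA from the product of Acat2, went the other way. It stood at 319.7 and 245 CPM in tissue and at 179 and 169 CPM in organoids (log2 fold change -0.70 ± 0.23 SE, adjusted p = 0.0364). The groups did not overlap, and the call was kept in 8 of 18 alternative analyses with the sign unchanged in all of them. Within single classes of cells, described further on, the difference was not called, at -0.60 ± 0.22 SE (adjusted p = 0.0531) in undifferentiated cells and -0.36 ± 0.25 SE (adjusted p = 0.302) in cycling cells.

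From squalene to cholesterol, 4 of 11 enzymes were called higher in organoids and none lower. Tm7sf2, Nsdhl, Lss and Cyp51 had log2 fold changes of 1.09, 1.08, 1.04 and 0.89. Lss forms lanosterol, Cyp51 demethylates it, Tm7sf2 reduces the product of Cyp51, and Nsdhl acts in the demethylation that follows. Tm7sf2 overlaps Vps51 on the same strand, so its counts could hold reads of that gene. Sqle, the squalene epoxidase ahead of them, stood at 72.9 and 66.5 CPM in tissue and 88.8 and 75.4 CPM in organoids and was not called (0.24 ± 0.19 SE, adjusted p = 0.346). The other 6 enzymes lay between -0.18 and 0.38 and were not called.

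None of the 5 regulators and carriers was called between organoids and tissue. Insig1 stood at 61.3 and 43.8 CPM in tissue and 57.7 and 47.2 CPM in organoids. Srebf1 stood at 24.5 and 24.2 CPM in tissue and 19.7 and 24.8 CPM in organoids, and Srebf2 at 133 and 118 CPM in tissue and 129 and 169 CPM in organoids. The groups overlapped for all 3 genes. Stard4, a carrier of cholesterol between membranes, stood at 157 and 129 CPM in tissue and 137 and 118 CPM in organoids (-0.16 ± 0.22 SE).

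Of the 6 fatty acid genes 3 were called higher in organoids and 1 lower. Scd1, a stearoyl-CoA desaturase, stood at 12.6 and 11.1 CPM in tissue and 56.8 and 66.4 CPM in organoids (log2 fold change 2.38 ± 0.21 SE, adjusted p = 6.5e-05, 5.20-fold). Acly, ATP citrate lyase, stood at 196 and 169.6 CPM in tissue and 91.9 and 105 CPM in organoids (-0.89 ± 0.21 SE, adjusted p = 0.00795). Fasn, fatty acid synthase, stood at 53.6 and 47.2 CPM in tissue and 86.6 and 86.0 CPM in organoids (0.77 ± 0.18 SE). So the lyase that supplies acetyl-CoA was lower in organoids while the synthase that uses it was higher. Elovl6, which elongates the product of the synthase, had a log2 fold change of 0.95. Scd2, the second desaturase, stood at 589.9 and 498 CPM in tissue and 590.3 and 725 CPM in organoids and was not called (0.27 ± 0.26 SE).

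These counts depended on the tissue libraries. Without tissue replicate 2 the genes called higher fell from 13 to 4, and without tissue replicate 1 to 8, with none called lower in either case. Without any other 1 library they were 11 to 13 higher and 1 to 3 lower. Acat2, Pmvk, Tm7sf2 and Scd1 were called in all 18 alternatives, and all 15 called genes kept their sign in them.

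**Figure D1:**
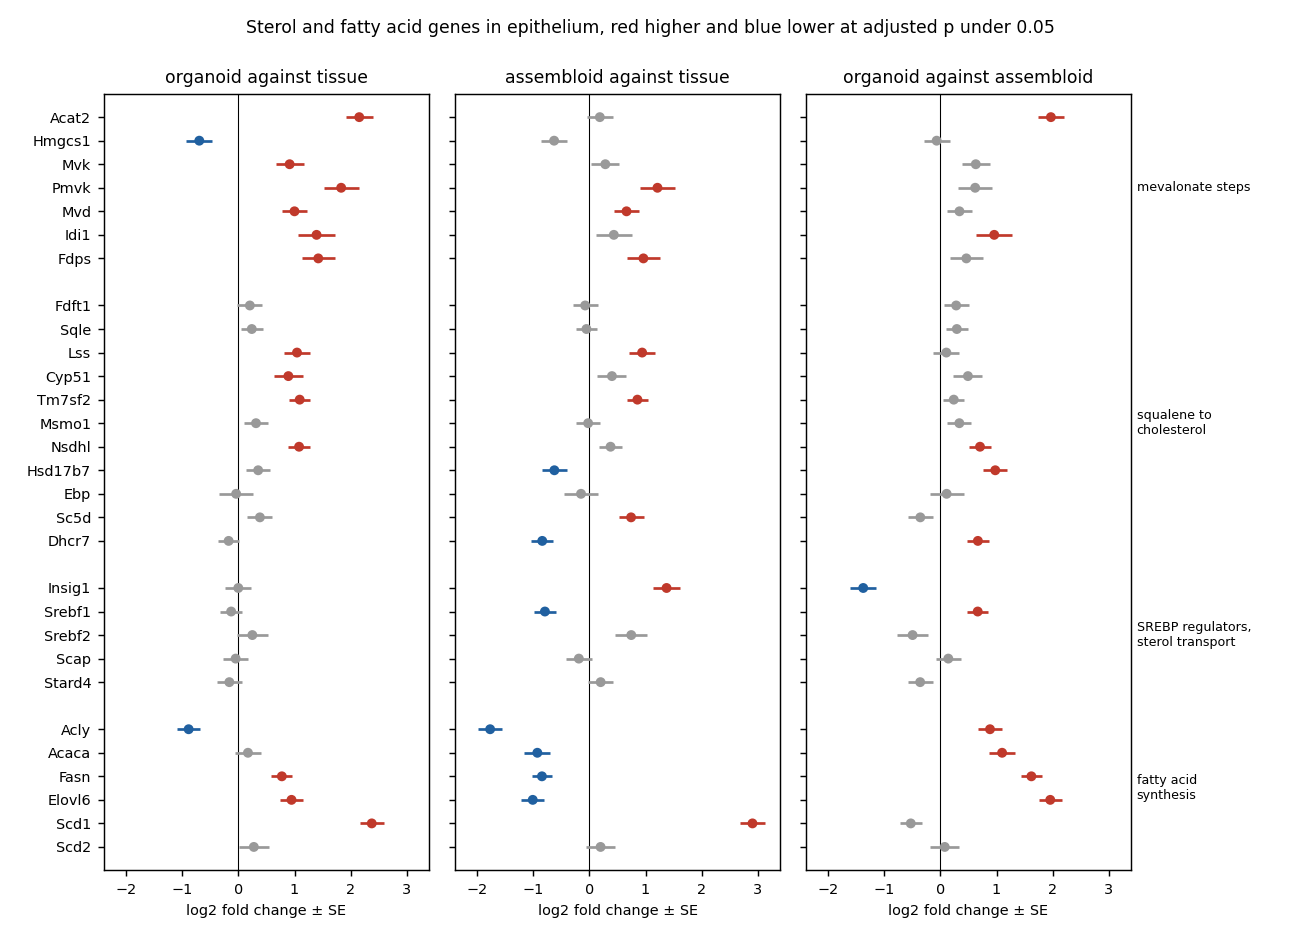
Log2 fold change (x axis) with its standard error for each of the 29 genes (rows, grouped by role) in the 3 comparisons of epithelium, with red for genes called higher and blue for genes called lower at an adjusted p under 0.05. Acly, Acaca, Fasn and Elovl6 are blue in assembloids against tissue and red in organoids against assembloids, while Scd1 is the rightmost point in both comparisons with tissue.

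The second comparison set assembloid epithelium against tissue epithelium, with the same tissue libraries as controls. Assembloid epithelium had lower Acly, Acaca, Fasn and Elovl6, higher Scd1 and higher Insig1. Of the 29 genes 8 were called higher where 26.8% of all genes were, and 7 lower where 23.3% of all genes were, so neither count stood far from the share over all genes. The median log2 fold change was 0.20 against 0.03 over all genes.

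Fatty acid synthesis was the role with the most genes called lower, 4 of 6. Acly stood at 53.6 and 53.3 CPM in assembloids against 196 and 169.6 CPM in tissue (log2 fold change -1.77 ± 0.21 SE, adjusted p = 0.000319). Acaca, the carboxylase that makes malonyl-CoA, stood at 39.5 and 36.2 CPM against 76.5 and 67.7 CPM (-0.93 ± 0.23 SE, adjusted p = 0.011). Fasn stood at 29.01 and 27.0 CPM against 53.6 and 47.2 CPM (-0.85 ± 0.19 SE, adjusted p = 0.00584). Each of the genes from citrate to palmitate was thus lower in both assembloid libraries than in either tissue library. Elovl6 stood at 27.2 and 27.9 CPM against 52.9 and 58.3 CPM (-1.01 ± 0.20 SE, adjusted p = 0.00405). That call was made over all cells and was not made within undifferentiated cells (-0.45 ± 0.23 SE, adjusted p = 0.134) or within cycling cells (-0.35 ± 0.24 SE, adjusted p = 0.268).

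The desaturases did not follow them. Scd1 stood at 96.6 and 81.3 CPM in assembloids against 12.6 and 11.1 CPM in tissue (log2 fold change 2.91 ± 0.22 SE, adjusted p = 3.51e-05, 7.51-fold). Scd2 stood at 659.6 and 588 CPM against 589.9 and 498 CPM and was not called (0.20 ± 0.26 SE). Scd1 and Scd2 belong to the same gene family, and of the pair only Scd1 was called in either culture against tissue.

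Insig1 was the regulator with the highest fold change. It stood at 135 and 138 CPM in assembloids against 61.3 and 43.8 CPM in tissue (log2 fold change 1.38 ± 0.23 SE, adjusted p = 0.00179, 2.59-fold). Srebf1 was lower in assembloids, at 13.3 and 14.8 CPM against 24.5 and 24.2 CPM (-0.80 ± 0.19 SE, adjusted p = 0.00939). Srebf2 stood at 259 and 161 CPM against 133 and 118 CPM, and the difference missed the threshold (0.75 ± 0.28 SE, adjusted p = 0.0558). The 2 genes that encode SREBPs thus had log2 fold changes of opposite sign, of which that of Srebf1 was called. Stard4 stood at 176 and 153 CPM against 157 and 129 CPM, with overlapping groups.

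The sterol enzymes were mixed. Pmvk was higher at 92.3 and 97.1 CPM against 39.2 and 42.5 CPM (1.21 ± 0.31 SE, adjusted p = 0.0109). Fdps, Lss, Tm7sf2, Sc5d and Mvd were called higher as well, between 0.66 and 0.96. Dhcr7 and Hsd17b7, a late reductase and a late ketoreductase of the route, were called lower at -0.84 and -0.63. Hmgcs1 stood at 177 and 187 CPM against 319.7 and 245 CPM (-0.63 ± 0.23 SE, adjusted p = 0.0504). Idi1 at 128 and 103 CPM, Sqle at 66.8 and 67.5 CPM and Acat2 at 33.9 and 28.9 CPM were not called against tissue.

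With the unscaled library totals in place of TMM factors, 3 genes were called higher and 8 lower, and the median over all genes moved by -0.38 in this comparison, by -0.21 in organoids against tissue and by 0.15 in organoids against assembloids. Without tissue replicate 2 the counts were 2 and 2, without tissue replicate 1 they were 3 and 2, and without assembloid replicate 1 they were 5 and 5. Insig1, Acly and Scd1 were called in all 18 alternatives, and all 15 called genes kept their sign.

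**Figure D2:**
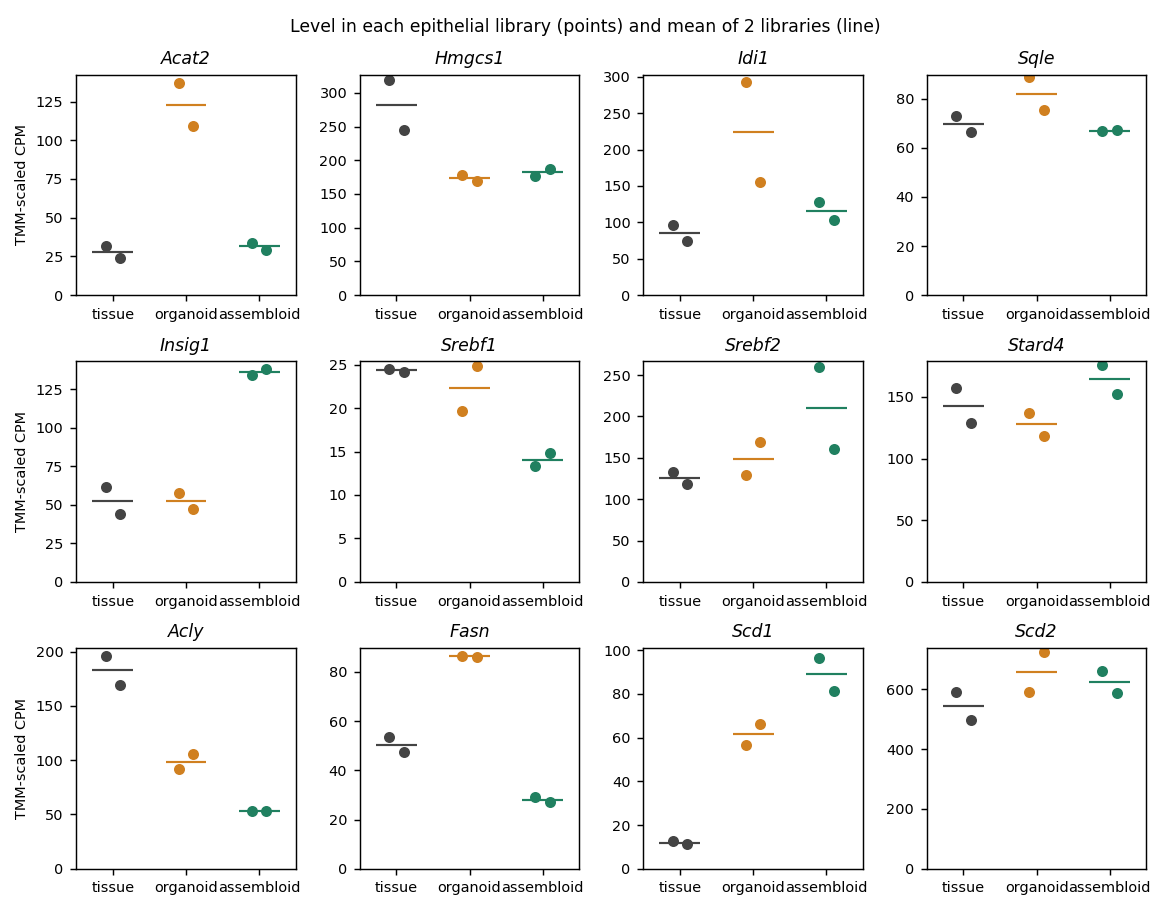
TMM-scaled CPM (y axes from 0) of 12 of the genes in each epithelial library, as points, with the mean of the 2 libraries of a group as a line. Insig1 stands apart in assembloids, Acat2 in organoids, and Acly and Scd1 separate tissue from both cultures in opposite directions.

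The third comparison set the cultures against each other, that is epithelium grown alone in full medium against epithelium grown with stroma in the reduced medium. Organoids were higher for 10 of the 29 genes where 24.7% of all genes were called, and lower for 1, Insig1, where 29% of all genes were. The median log2 fold change was 0.34 against -0.01 over all genes. Counts moved with the scaling: upper-quartile factors gave 6 higher and 2 lower.

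Of the 6 fatty acid genes 4 were called higher in organoids. Elovl6 stood at 94.0 and 120.1 CPM in organoids against 27.2 and 27.9 CPM in assembloids (log2 fold change 1.96 ± 0.21 SE, adjusted p = 0.000212, 3.89-fold). Fasn stood at 86.6 and 86.0 CPM against 29.01 and 27.0 CPM (1.62 ± 0.19 SE, adjusted p = 0.000304, 3.08-fold). Acaca and Acly were called at 1.10 and 0.88. For the chain from Acly to Elovl6 both organoid libraries lay above both assembloid libraries. Scd1 stood at 56.8 and 66.4 CPM against 96.6 and 81.3 CPM and missed the threshold in the other direction (-0.53 ± 0.20 SE, adjusted p = 0.0506).

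Among sterol genes Acat2 stood at 137 and 109 CPM in organoids against 33.9 and 28.9 CPM in assembloids (1.97 ± 0.23 SE, adjusted p = 0.000341). Hsd17b7, Idi1, Nsdhl and Dhcr7 were also called higher in organoids, between 0.67 and 0.98. Insig1, at 57.7 and 47.2 CPM in organoids against 135 and 138 CPM in assembloids, was the 1 gene called lower (-1.38 ± 0.23 SE, adjusted p = 0.00163). Srebf1 was higher in organoids (0.66 ± 0.19 SE). Acat2, Hsd17b7, Insig1, Acaca, Fasn and Elovl6 were called in all 18 alternatives. The count called higher was 5 without assembloid replicate 1 and 15 without organoid replicate 2.

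For Scap, the escort of the SREBPs, the log2 fold changes over the 3 comparisons were -0.05, -0.19 and 0.14, and none was called.

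The groups also differed in their cell types, and a sum over a library cannot tell fewer cells of a type from less RNA per cell. All 7 goblet markers summed to between 21119 and 23485 CPM in tissue, 2508 to 4823 CPM in assembloids and 375 to 500 CPM in organoids. All 7 colonocyte markers summed to 2681 to 3303 CPM, 1480 to 2240 CPM and 57.0 to 88.5 CPM in the same order. Guca2a alone stood at 1631 and 1945 CPM in tissue, and Car1 alone at 1233 and 1935 CPM in assembloids. All 5 stem cell markers were highest in organoids, at 326 to 508 CPM, and all 8 cycling markers too, at 1402 to 1660 CPM against 279 to 369 CPM in tissue. The comparisons were therefore also made within classes of cells, where a gated class held cells with at least 2 of its markers and a summed marker level at or above a set value. The undifferentiated class had no markers of its own. It held the epithelial cells left over, which passed neither the cycling gate nor a gate for a differentiated type. Differentiated cells that missed their gate would therefore also be in it.

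Within undifferentiated cells that did not cycle, 12 genes were higher in organoids than in tissue (21.3% of all genes) and 1 lower (20.3% of all genes). Assembloids against tissue gave 9 higher (26.1% of all genes) and 6 lower (21.4%). Organoids against assembloids gave 10 higher (22.2% of all genes) and 2 lower (26.9%). Scd1 at 1.97 and 2.60 against tissue in organoids and assembloids, Acly at -1.12 and -2.03 and Insig1 at -0.06 and 1.49 stood beside values of 2.38 and 2.91, -0.89 and -1.77, and 0.00 and 1.38 over all cells. Elovl6 stood at 28.1 and 27.8 CPM in assembloids against 34.01 and 42.5 CPM in tissue, not called. Tissue colonocytes held 122 and 121 CPM on the scale of their own fit. Hmgcs1 stood at 147 and 156 CPM in organoids against 254 and 205 CPM in tissue and was not called, and Fasn was not called in organoids either (0.51 ± 0.19 SE, adjusted p = 0.0574). Leaving out tissue replicate 2 lowered the genes called higher to 6 in organoids and 2 in assembloids, and leaving out tissue replicate 1 to 8 and 3. In organoids against assembloids 5 were higher without assembloid replicate 2 and 6 without either tissue library. With unscaled totals assembloids against tissue had 4 higher and 9 lower. Many tissue cells lay close to a gate, with 876 and 566 between 20% below and 25% above the goblet level, where 766 and 690 cells were gated as goblet cells, and 214 and 350 in the same band around the colonocyte level. In tissue this leftover class held 3079 and 2737 cells, which were shallow, with a median of 1202 and 2253 UMIs a cell.

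Within cycling cells, organoids against tissue gave 14 higher (16.6% of all genes) and 1 lower (15.2%). Assembloids against tissue gave 6 higher (21.7% of all genes) and 5 lower (17.9%), and organoids against assembloids 10 higher (20%) and none lower (25.4%). Scd1, Acly and Fasn were called in the same direction as over all cells in both cultures against tissue. Elovl6 stood at 27.4 and 31.0 CPM in assembloids against 38.6 and 35.6 CPM in tissue, and Hmgcs1 at 199 and 184 CPM in organoids against 255 and 237 CPM in tissue, and neither was called. Insig1 was not called either, with log2 fold changes of 0.53 against tissue in assembloids and -0.47 in organoids against assembloids. Without tissue replicate 2 the genes called higher against tissue were 5 in organoids and 1 in assembloids, and without tissue replicate 1 they were 7 and 2. In organoids against assembloids 5 were higher without assembloid replicate 1 and 6 without assembloid replicate 2 or either tissue library. With unscaled totals organoids against tissue had 8 higher and 2 lower, and assembloids against tissue 2 higher and 8 lower. Cells between 20% below and 25% above the cycling level numbered 91 and 143 in tissue, 3674 and 382 in assembloids and 1076 and 951 in organoids, where 418 and 298, 7175 and 1331, and 2885 and 3800 cells passed the gate.

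Cycling cells were then set against all other epithelial cells of the same libraries, colonocytes and goblet cells included. In assembloids 7 genes were called higher in cycling cells (17.5% of all genes) and 5 lower (15.3%). Insig1 had the largest change there, at 88.3 and 67.8 CPM in cycling cells against 160.5 and 170.3 CPM in the rest (log2 fold change -1.09 ± 0.11 SE, adjusted p = 0.000494). In organoids 3 were higher (3.63% of all genes) and none lower (2.47%), and Insig1 stood at 61.8 and 50.8 CPM against 49.2 and 45.8 CPM. In tissue Acat2 was called higher (10% of all genes) and 13 genes lower (19.6%). Insig1 stood there at 59.2 and 42.6 CPM in cycling cells against 67.2 and 47.2 CPM, so that its low level in cycling cells was called in assembloids alone.

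Elovl6 was the lowest of the tissue calls, at 35.9 and 32.0 CPM in cycling cells against 60.3 and 65.4 CPM in the rest (-0.87 ± 0.10 SE). Ebp, the sterol isomerase, followed at 76.1 and 66.3 CPM against 112 and 116 CPM, and Msmo1, the methyl oxidase, at 128 and 94.0 CPM against 192 and 159 CPM. As unscaled CPM, tissue Elovl6 stood at 46.8 and 43.3 in cycling cells and 39.0 and 48.8 in undifferentiated cells. It stood at 132 and 135 in colonocytes and 76.2 and 63.4 in goblet cells of the tissue. In organoids Elovl6 was called in the other direction, at 104 and 135 CPM against 74.7 and 109 CPM (0.39 ± 0.08 SE). In assembloids the 3 highest calls were Acaca, at 48.5 and 49.3 CPM against 37.6 and 35.3 CPM, Acat2, at 42.7 and 37.3 CPM against 31.8 and 28.8 CPM, and Fasn (0.33 ± 0.07 SE).

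These small differences depended on scaling and on single libraries. With unscaled totals the counts in tissue were 4 higher and 3 lower, with Pmvk, Fdps, Fdft1, Sqle, Cyp51 and Dhcr7 changing sign, and those in assembloids were 13 and 3. In organoids the 3 calls became 0 without any 1 of the organoid or tissue libraries, 20 without assembloid replicate 1 and 19 without assembloid replicate 2. Without tissue replicates 1 and 2 in turn the tissue count called lower was 4 and 6. Without assembloid replicate 1 the assembloid counts were 3 and 14, and without either organoid library 3 were called higher.

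The difference between groups in the cycling effect was tested directly. The other cells were unlike between groups, with 401 and 503 colonocytes in tissue, 1218 and 683 in assembloids and 8 and 2 in organoids. Organoids minus tissue gave 11 genes with a higher effect (11.5% of all genes) and none lower (4.77%), led by Elovl6 at 1.26 ± 0.12 SE. Assembloids minus tissue gave 6 higher (7.28% of all genes) and 1 lower (2.58%), Insig1 at -0.92 ± 0.16 SE. Organoids minus assembloids gave 5 higher (3.49% of all genes), with Insig1 at 1.33 ± 0.15 SE, and none lower (3.15%). With unscaled totals organoids minus tissue had 3 higher and 1 lower, assembloids minus tissue 2 and 1, and organoids minus assembloids 2 and 3. The higher counts without tissue replicate 1 were 3, 0 and 0, and without assembloid replicate 1 they were 18, 2 and 14.

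Colonocytes and goblet cells are the main mature cells of the colon, and both classes had enough cells in tissue and assembloids but not in organoids. The colonocyte class held 401 and 503 cells in tissue and 1218 and 683 in assembloids, and the goblet class 729 and 649 and 290 and 267. Of the colonocyte markers Guca2a was highest in the tissue libraries and Car1 in the assembloid libraries. Cells that passed this gate may thus be unlike between the groups. In assembloids 1007 and 228 cells lay within the same band around the colonocyte level, where 1352 and 714 passed the gate, and 221 and 92 around the goblet level, where 307 and 281 passed. In tissue 8 genes were higher in colonocytes (27.5% of all genes) and 15 in goblet cells (28.2%). In assembloids 5 were higher in colonocytes (16.6% of all genes) and 5 in goblet cells (15.9%). All 7 mevalonate enzymes were lower in tissue colonocytes than in tissue goblet cells.

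Insig1 turned its direction between the groups. In tissue it stood at 42.0 and 31.9 CPM in colonocytes against 81.9 and 52.5 CPM in goblet cells (log2 fold change -0.85 ± 0.13 SE, adjusted p = 3.71e-05). In assembloids it stood at 343 and 372 CPM in colonocytes against 219 and 209 CPM in goblet cells (0.74 ± 0.12 SE, adjusted p = 0.000139). Every assembloid value thus lay above every tissue value, and within assembloids the colonocytes were higher. The difference between the effects was 1.59 ± 0.17 SE, with an adjusted p = 1.38e-05.

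Lss, which closes squalene epoxide to lanosterol, stood at 11.0 and 9.64 CPM in tissue colonocytes against 40.4 and 24.3 CPM in tissue goblet cells (-1.62 ± 0.16 SE, adjusted p = 2.9e-07). In assembloids Lss stood at 69.0 and 56.8 CPM against 52.2 and 46.1 CPM, and the effect differed by 1.97 ± 0.21 SE. Acat2 in tissue stood at 13.4 and 11.3 CPM in colonocytes against 33.7 and 23.5 CPM in goblet cells (-1.21 ± 0.17 SE). Idi1, Acat2, Mvk and Fdps shared the direction of Lss and Insig1 in this test, between 0.53 and 1.14. In all, 6 genes had a higher colonocyte effect in assembloids (8.35% of all genes) and 3 a lower one (12.2%). The 6 became 11 without assembloid replicate 1 and 3 without tissue replicate 1.

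The 3 with a lower effect were Dhcr7, Ebp and Elovl6. Elovl6 stood at 122 and 121 CPM in tissue colonocytes against 60.0 and 50.2 CPM in tissue goblet cells (1.15 ± 0.12 SE, adjusted p = 4.63e-07), while in assembloids it stood at 28.8 and 33.4 CPM against 28.01 and 27.3 CPM. Ebp stood at 139.8 and 132 CPM against 73.9 and 85.2 CPM in tissue and at 80.4 and 103 CPM against 125 and 127 CPM in assembloids. Dhcr7 stood at 57.6 and 61.0 CPM against 42.9 and 36.8 CPM in tissue and at 26.4 and 29.3 CPM against 50.3 and 46.9 CPM in assembloids (-0.79 ± 0.15 SE, adjusted p = 0.000571). Ebp and Dhcr7 thus changed order between the classes from tissue to assembloids.

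Acly was lower in colonocytes in both groups. It stood at 87.9 and 79.7 CPM against 190.2 and 167 CPM in tissue (-1.09 ± 0.11 SE) and at 37.9 and 35.5 CPM against 107 and 94.9 CPM in assembloids (-1.45 ± 0.13 SE). Sqle was higher in colonocytes in both, at 89.2 and 91.2 CPM against 75.1 and 59.9 CPM in tissue and at 124 and 117 CPM against 84.0 and 72.5 CPM in assembloids (0.63 ± 0.13 SE). Scd1 in tissue was low in both classes and higher in colonocytes, at 11.7 and 9.64 CPM against 5.85 and 6.90 CPM (0.75 ± 0.19 SE). In assembloid colonocytes Idi1, Nsdhl and Hsd17b7 were the other calls upward, at 0.48, 0.56 and 0.58, and Srebf1 and Hmgcs1 were called lower at -0.60 and -0.47. Without tissue replicate 2 the tissue count higher in colonocytes was 3 instead of 8, and without tissue replicate 1 the count lower was 7 instead of 15. With unscaled totals the tissue counts were 4 and 15.

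**Figure D3:**
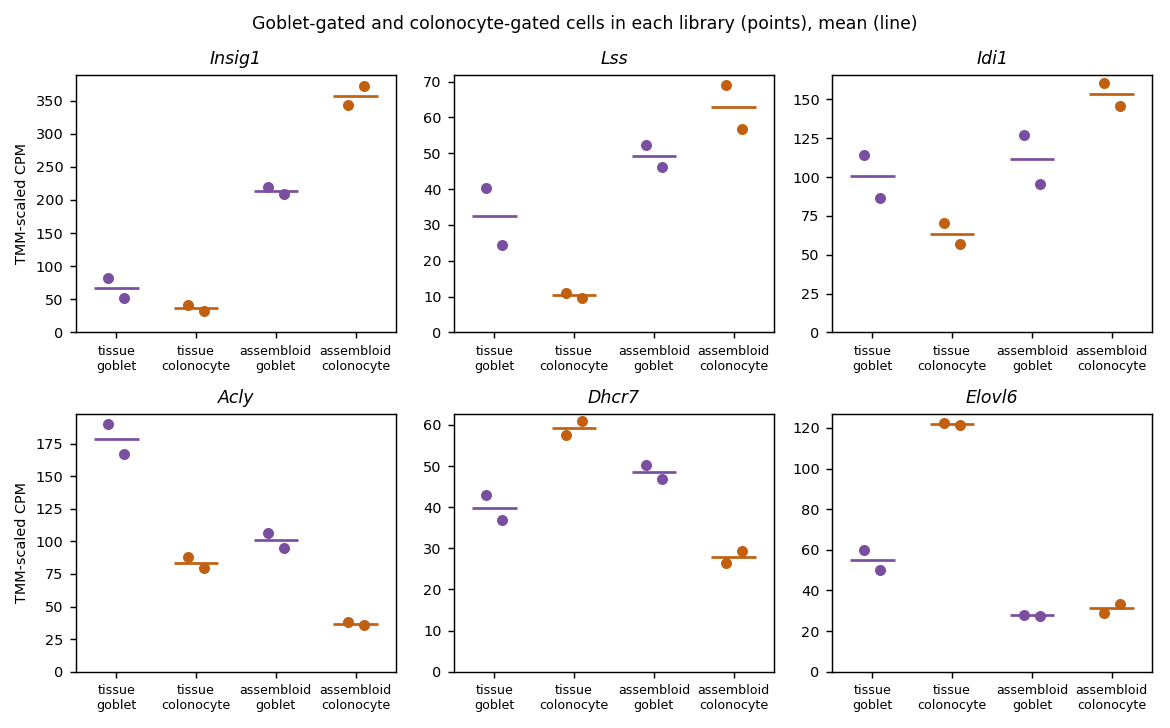
TMM-scaled CPM (y axes from 0) of 6 of the genes in goblet-gated (purple) and colonocyte-gated (orange) cells of each tissue and assembloid library, as points, with the mean of 2 libraries as a line. Insig1 reaches 343 and 372 in assembloid colonocytes, and Elovl6 is raised in tissue colonocytes but not in assembloid colonocytes.

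In the sorted assembloid epithelium 1837 and 560 cells passed the fibroblast gate and 560 and 236 the macrophage gate. Without cells that also passed the epithelial gate or another non-epithelial gate, 671 and 501 fibroblasts and 156 and 179 macrophages were left. These allowed the genes to be compared across cell types inside the same libraries. In these libraries epithelial cells carried the higher levels of most of the genes. In fibroblasts 25 of the 29 genes were called lower than in epithelial cells (28.5% of all genes) and 1 higher (28.1%), and in macrophages 26 were lower (25%) and none higher (22.6%). The median log2 fold changes were -1.38 and -1.70, against -0.09 and -0.17 over all genes.

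Idi1 had the lowest fold change in fibroblasts, at 29.1 and 19.8 CPM against 118 and 98.7 CPM in epithelial cells (-2.16 ± 0.22 SE). Lss had the lowest in macrophages, at 11.7 and 4.40 CPM against 44.4 and 37.4 CPM (-2.50 ± 0.32 SE). Stard4 was low in both, at 41.8 and 33.3 CPM in fibroblasts and 39.4 and 32.4 CPM in macrophages against 162 and 146 CPM in epithelial cells. The single gene higher in fibroblasts was Elovl6, at 88.4 and 90.9 CPM against 24.9 and 26.3 CPM (1.81 ± 0.16 SE), and in macrophages it stood at 4.19 and 6.40 CPM (-2.21 ± 0.23 SE). Scd1 stood at 125 and 78.7 CPM in fibroblasts, not called, and at 14.3 and 18.8 CPM in macrophages against 89.2 and 77.7 CPM in epithelial cells (-2.26 ± 0.27 SE). Elovl6 thus lay above epithelial cells in fibroblasts and below them in macrophages. Acly at 82.2 and 56.4 CPM in macrophages and Srebf1 were not called against epithelial cells. Free RNA and doublets were not removed, and their part in these values was not tested.

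In the separate stromal libraries fibroblasts were the largest class, with 4966 and 6757 that did not cycle and 2088 and 1513 that did. Smaller classes were myofibroblasts with 153 and 99 cells, glia with 63 in each library and neurons with 113 and 139. These libraries carried another version of the counting software than the epithelial ones, so no test was made between them. As unscaled CPM over the whole library, Elovl6 stood at 103 and 102, Scd1 at 113 and 98.6, Insig1 at 31.1 and 39.6 and Stard4 at 25.5 and 25.8. Summed over the 29 genes, noncycling fibroblasts of the stromal libraries stood at 2007 and 1678 unscaled CPM, above the fibroblasts gated in the assembloid epithelial libraries at 1333 and 1134. Idi1 stood at 72.1 and 60.2 CPM in the former and 28.6 and 20.3 CPM in the latter. Besides the software, the classes differed, since cycling and myofibroblast-gated cells were left out of the stromal class alone. The gap was not tested. Levels of fibroblasts in the epithelial libraries were thus not taken for those of fibroblasts in the stromal libraries.

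Myofibroblasts had the most genes called higher among the 4 stromal classes tested. Against fibroblasts that did not cycle, 21 of the 29 genes were called higher (11.5% of all genes) and none lower (13.8%), with a median of 0.58 against -0.10 over all genes. All 7 mevalonate enzymes and 10 of 11 enzymes from squalene to cholesterol rose, but only 2 of 6 fatty acid genes, Fasn and Scd2. Idi1 stood at 150.5 and 174 CPM against 77.7 and 67.5 CPM (1.16 ± 0.16 SE), Fdps at 616 and 593 CPM against 319 and 233 CPM (1.14 ± 0.13 SE) and Acat2 at 78.1 and 89.4 CPM against 46.0 and 38.4 CPM (0.98 ± 0.12 SE). Insig1 was called at 0.52, while Srebf1 and Srebf2 at 0.13 and 0.29 were not. All 8 cycling markers together stood at 1651 and 1560 CPM in myofibroblasts against 179 and 121 CPM in the fibroblasts, and myofibroblasts had medians of 19762 and 22330 UMIs a cell against 13221 and 11993. Fibroblast markers summed to 6540 and 7919 CPM in the myofibroblast class, above its myofibroblast markers at 2239 and 1913 CPM. In the fibroblasts the myofibroblast markers summed to 75.7 and 61.2 CPM. Around the myofibroblast level, 94 and 73 cells lay in the band used for the other gates, where 153 and 99 passed. The part of cycling, depth and gating in the result was not tested.

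Cycling fibroblasts, in which the same cycling markers stood at 3411 and 3536 CPM, had 10 genes higher (13.6% of all genes) and none lower (22.8%). Stard4 led at 29.9 and 38.9 CPM against 20.3 and 20.6 CPM (0.75 ± 0.13 SE), followed by Acat2 at 56.4 and 60.7 CPM (0.48 ± 0.10 SE) and Idi1 at 90.2 and 108 CPM (0.45 ± 0.14 SE). None of the 6 fatty acid genes was called. With the stricter gate, and likewise with DESeq2, 6 genes were called.

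Cells gated as glia and as neurons were compared with fibroblasts in the same way. Neuron markers summed to 2502 and 2768 CPM in the glia-gated class, above its glia markers at 1751 and 1735 CPM, and cells that passed both gates had been placed in it. In this class 1 gene was higher (14.8% of all genes), Scd2 at 819.7 and 584 CPM against 411 and 336 CPM (0.90 ± 0.13 SE), and 6 were lower (15.9%). Elovl6 was lowest there at 35.3 and 22.9 CPM against 112 and 109 CPM (-1.93 ± 0.27 SE), with Hsd17b7 and Acat2 at -1.51 and -1.48. In neurons 4 genes were higher (24.7% of all genes), Dhcr7, Tm7sf2, Fdft1 and Hmgcs1 between 0.53 and 1.06, and 3 were lower (22.3%). Dhcr7 stood there at 43.9 and 33.6 CPM against 17.9 and 18.8 CPM. Elovl6 was again lowest, at 58.5 and 36.3 CPM (-1.24 ± 0.16 SE), with Scd1 at -0.82 and Cyp51 at -0.51. With unscaled totals neurons had 10 genes higher and 2 lower, and glia 2 and 3, while the stricter gate gave 11 higher in neurons. That gate left 16 and 18 cells in the glia-gated class and 58 and 36 myofibroblasts.

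**Figure D4:**
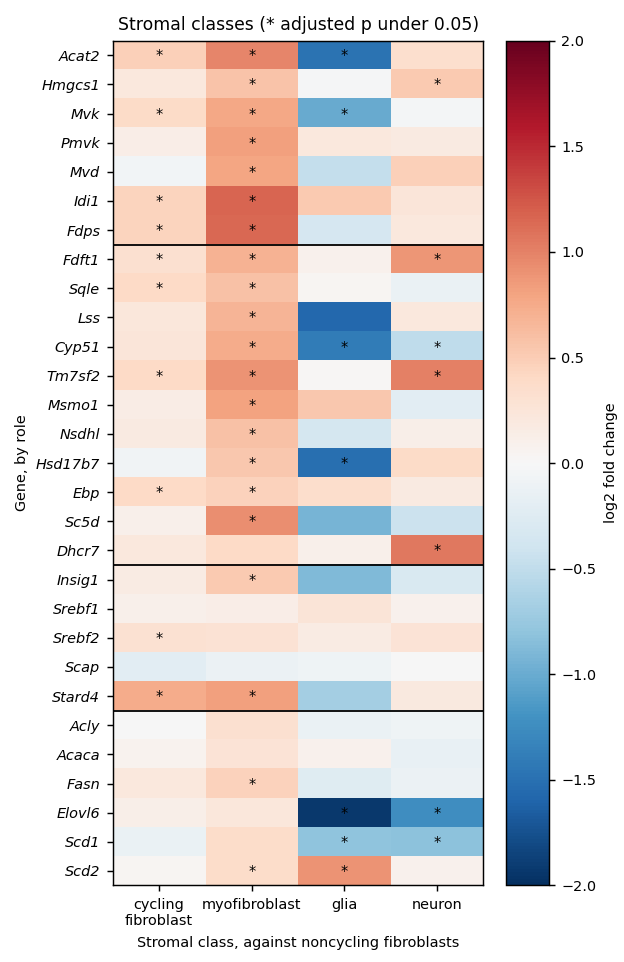
Log2 fold change against noncycling fibroblasts (colour, red higher and blue lower) of each of the 29 genes (rows, grouped by role with black lines) in 4 stromal classes (columns), with an asterisk where the adjusted p was under 0.05. The myofibroblast column is red for the sterol enzymes, and Elovl6 is blue in glia and neurons.

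Other genes of the pathway were read from 3 lists around the same routes. In organoids against tissue 9 of 20 further lipid synthesis and SREBP pathway genes were called higher and 5 lower, where 24.4% and 22.9% of all genes were. In assembloids against tissue the counts were 6 and 7, where 26.8% and 23.3% of all genes were called. In organoids against assembloids they were 6 and 6, where 24.7% and 29% of all genes were. Apart from the 9 and the 7, these counts lay near the shares over all genes. Me1, the malic enzyme that supplies NADPH for fatty acid synthesis, had the highest fold change against tissue in both cultures, 4.49 in organoids and 5.11 in assembloids, with 47 and 57 UMIs in the tissue libraries and 2485 to 4713 in the cultures. The lowest were Acsl3, a fatty acyl-CoA ligase, at -1.24 in organoids and Fads2, a fatty acid desaturase, at -1.76 in assembloids. Between the cultures Fads1 at 1.69 and Acacb at -1.55 stood at the ends.

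Of 13 genes of cholesterol efflux, esterification and storage 9 were called lower in organoids against tissue, where 22.9% of all genes were, and 1, the lipoprotein receptor gene Scarb1 at 0.81, was called higher. Abca1, the cholesterol exporter, was the lowest at -6.67, with 4 UMIs in each organoid library against 218 and 104 in tissue. In assembloids against tissue 3 were higher and 5 lower, where 26.8% and 23.3% of all genes were called, and in organoids against assembloids none was higher and 6 were lower, where 24.7% and 29% of all genes were. Soat2, a sterol O-acyltransferase, was highest in assembloids at 4.37, with 884 and 296 UMIs there against 13 and 9 in tissue. Abcg8, a sterol transporter, was lowest at -5.94, a value that rests on 2 and 3 UMIs in the assembloid libraries against 87 and 49 in tissue. Abca1 had 449 and 136 UMIs in assembloid epithelium, and in the macrophages of those libraries it was 7.96 higher on the log2 scale than in epithelial cells. Macrophage markers summed to 35.1 to 84.7 CPM in assembloid epithelium against at most 8.23 CPM in organoid and tissue epithelium. The part of macrophages in the level of Abca1 was not tested.

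Of 9 lipid droplet and triglyceride genes 2 were called higher and 3 lower in organoids against tissue, where 24.4% and 22.9% of all genes were. In assembloids against tissue 2 were higher and none lower, where 26.8% and 23.3% of all genes were called. In organoids against assembloids 2 were higher and 3 lower, where 24.7% and 29% of all genes were. Apart from the absence of lower calls in assembloids against tissue, these counts lay near the shares of all genes called in the same comparisons. Plin2, a coat protein of lipid droplets, was lowest in organoids against tissue at -2.31. Gpat3, an acyltransferase of glycerol lipid synthesis, was higher in assembloids against tissue at 2.03 and lower in organoids against assembloids at -3.59. In tissue colonocytes against goblet cells 8 of these 9 genes were called higher and none lower, where 27.5% and 28.2% of all genes were. In assembloids 6 were called higher and none lower, where 16.6% and 15.9% of all genes were.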

How the data were processed

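Single cells were sequenced with the 10x 3′ v3 kit. The deposited matrices hold UMI counts per gene and cell barcode that the authors made with Cell Ranger, version 6 and build mm10 per the labels; the matrix headers name 6.0.1 for stroma and 7.1.0 for epithelium, and whether intron reads counted is not given in the sources used here. The cell filter was the one the methods give for stroma, used here for all libraries, with a floor of 500 detected genes and a ceiling of 10% for mitochondrial UMIs. Classes were gated on marker genes, at levels set after their distributions had been seen, except the undifferentiated class, which took the cells left over. Cells gated as non-epithelial were left out of the epithelial sums. Doublets were left in. Counts were summed per library, or per library and class of at least 50 cells (the stricter gate was fitted below that for glia and myofibroblasts), and tested with edgeR 4.0.16 (filterByExpr, TMM, quasi-likelihood F test, Benjamini-Hochberg adjustment over all genes, threshold 0.05) in R 4.3.3. The groups' 6 epithelial libraries shared 1 fit, and classes were compared with the library as a term. SEs were taken from the F statistic. The functions were run on simulated counts with large planted changes at a fixed spread, which is no check for smaller changes.

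Alternatives used DESeq2 1.42.0, limma 3.58.1 on mean counts per 10000 (pseudocount 0.01), other filters, gates and scalings, a replicate block and leaving out each library. Values in full are given for Hmgcs1, Sqle, Idi1, Insig1, Srebf1, Srebf2, Fasn, Scd1, Scd2, Stard4 and the 3 highest and 3 lowest called genes of each group comparison, and for the ends of class comparisons. Outside the 29 genes, the highest and lowest called gene of each list is named. The genes and lists were chosen with earlier results of these data known. Promoters are from RefSeq.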

Additional observations from a re-analysis of the deposited data

Results flagged for a closer look

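Differences between groups in the contrast of cell classes passed the edgeR quasi-likelihood test for 32 pairs of a gene and a contrast, with adjusted p-values over all genes. Values are differences of log2 fold changes, and contrasts that share tissue or assembloid libraries are not independent of each other.

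For colonocytes against goblet cells, assembloid minus tissue, the difference was 1.97 for Lss, 1.59 for Insig1, 1.14 for Idi1, 0.81 for Acat2, 0.68 for Mvk and 0.53 for Fdps. It was -1.36 for Dhcr7, -1.23 for Ebp and -0.95 for Elovl6. Idi1, Lss, Ebp, Dhcr7 and Insig1 passed in all 9 alternatives of this contrast.

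For cycling against other cells, organoid minus tissue, the difference was 1.26 for Elovl6, 0.87 for Msmo1, 0.72 for Ebp, 0.70 for Hmgcs1, 0.62 for Scd2 and 0.59 for Sc5d. It was 0.53 for Sqle, 0.51 for Fdft1, 0.51 for Tm7sf2, 0.49 for Dhcr7 and 0.37 for Fasn. Msmo1, Ebp and Elovl6 passed in all 11 alternatives, and Fasn changed sign with unscaled library totals. The other cells held 401 and 503 colonocytes in tissue and 8 and 2 in organoids.

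For the same cells, assembloid minus tissue, the difference was 0.94 for Ebp, 0.82 for Elovl6, 0.52 for Dhcr7, 0.45 for Fasn, 0.39 for Acly, 0.37 for Scd2 and -0.92 for Insig1. Organoid minus assembloid, it was 1.33 for Insig1, 0.76 for Msmo1, 0.63 for Hmgcs1, 0.51 for Nsdhl and 0.43 for Sqle. No gene passed in all 11 alternatives of either contrast.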

How the results depend on the processing

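The number of 2 libraries a group set the limit of these comparisons. Cell filters were varied for whole epithelium alone and gates for the classes alone. The stricter gate left the undifferentiated class with the same cells, so its values there are no check. No gene given in full had a called direction turned by an alternative. Counts of calls were compared by size alone, so that check could not show a turn in their balance. The sign changes of 6 genes in cycling tissue cells, Sqle and Pmvk among them, stand in the report, and that of Fasn above. The cause of the changes below was not tested. Counts are of the 29 genes, called higher or lower.

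In the comparisons of whole epithelium, organoids against tissue had 1 lower in place of 2 without the low-count filter, with all barcodes, with at most 20% mitochondrial counts, without the cells with the most UMIs and with limma on mean counts. Assembloids against tissue had 5 higher with limma and 3 with unscaled totals, in place of 8. Organoids against assembloids had 2 lower in place of 1 with DESeq2, at most 5% mitochondrial counts, at least 1000 genes, without the cells with the most UMIs and with upper-quartile factors, which also gave 6 higher in place of 10. Upper-quartile factors and DESeq2 each moved the median of all genes there by -0.19.

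With the replicate number as a block the counts were 13 and 2, 8 and 7, and 11 and 1. Same-numbered libraries had correlations of -0.015, 0.032 and -0.021 between their deviations from the group means, so the numbers were not taken as pairs.

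With unscaled totals, cycling cells had 13 higher and 3 lower in assembloids, 0 higher in organoids, and 4 higher and 3 lower in tissue. The differences of the cycling effect had 3 higher and 1 lower for organoid minus tissue, 2 higher for assembloid minus tissue, and 2 higher and 3 lower for organoid minus assembloid. Tissue colonocytes had 4 higher, glia 2 higher and 3 lower, and neurons 10 higher. Within cycling cells, organoids against tissue had 8 higher and 2 lower, and assembloids against tissue 2 higher and 8 lower. Within undifferentiated cells, organoids against tissue had 2 lower, assembloids against tissue 4 higher, and organoids against assembloids 1 lower.

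With upper-quartile factors, cycling cells had 4 higher and 9 lower in assembloids, 0 higher in organoids, and 2 higher and 6 lower in tissue, and the differences had 5 higher for organoid minus tissue and 2 for assembloid minus tissue. Tissue colonocytes had 5 higher. Undifferentiated cells had 2 lower in organoids against tissue and 6 higher in organoids against assembloids.

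With DESeq2, colonocytes had 3 higher and 3 lower in assembloids and 9 lower in tissue, cycling cells 2 higher and 7 lower in tissue, and the difference organoid minus assembloid 10 higher. Within cycling cells it gave 10 higher in assembloids against tissue and 2 lower in organoids against assembloids. Within undifferentiated cells it gave 4 lower in organoids against assembloids and 2 lower in organoids against tissue. Cycling fibroblasts had 6 higher.

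Without the low-count filter, cycling organoid cells had 5 higher, the differences 20 for organoid minus tissue and 9 for organoid minus assembloid, and glia 3 higher. With the stricter gate, colonocytes had 3 higher in assembloids and 4 in tissue, their difference 3 higher, cycling cells 0 higher in organoids and in tissue, and the difference organoid minus assembloid 3 higher. It also gave 1 lower in assembloids against tissue within cycling cells, 6 higher in cycling fibroblasts and 11 in neurons. Its glia, at 16 and 18 cells, and its myofibroblasts, at 58 and 36, were fitted with under 50 cells in at least 1 library.

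Leaving out 1 library at a time, organoids against tissue had 4 to 13 higher and 0 to 3 lower, assembloids against tissue 2 to 9 and 2 to 8, and organoids against assembloids 5 to 15 and 1 to 2. Within undifferentiated cells the same comparisons had 6 to 12 and 0 to 2, 2 to 10 and 2 to 7, and 5 to 11 and 1 to 3. Within cycling cells they had 5 to 17 and 0 to 1, 1 to 10 and 1 to 7, and 5 to 14 and 0 to 1. Cycling against other cells had 3 to 6 higher and 5 to 14 lower in assembloids, 0 to 20 higher in organoids, and 0 to 2 higher and 4 to 12 lower in tissue. Their differences had 3 to 18 higher for organoid minus tissue, 0 to 4 higher and 0 to 2 lower for assembloid minus tissue, and 0 to 14 higher for organoid minus assembloid. Colonocytes against goblet cells had 5 higher and 4 to 5 lower in assembloids and 3 to 9 higher and 7 to 15 lower in tissue, and their difference had 3 to 11 higher and 3 lower. A group left with 1 library was assumed to vary like the others. The stromal classes and the fibroblasts and macrophages of assembloid epithelium have 2 libraries, so none was left out there.

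Where edgeR called none of the 29 genes in a direction, at most 1 passed an unadjusted p of 0.05, and DESeq2 called none except 2 in organoids against assembloids within cycling cells.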
